A study of Danio rerio with 12 samples.

Results

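The 6 zebrafish genes of Hox paralog groups 1 and 2 named in the deposited count table, hoxa1a, hoxb1a, hoxb1b, hoxc1a, hoxa2b and hoxb2a, were followed across all 12 libraries of the series. They were taken by gene name and are 6 of 31051 genes in the table. Their identifiers are ENSDARG00000057721 (hoxa1a), ENSDARG00000008174 (hoxb1a), ENSDARG00000054033 (hoxb1b), ENSDARG00000070337 (hoxc1a), ENSDARG00000023031 (hoxa2b) and ENSDARG00000000175 (hoxb2a). All 6 passed the filter on low counts, which left 18117 genes to test.

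RNA sequencing was done on embryos of the AB strain at 10 somites, and the 12 libraries form 4 groups of 3. Wild-type prdm1+/+ embryos that received a control morpholino served as controls, and prdm1-/- embryos that received the same control morpholino are the prdm1 mutants. The pbx2/4 morphants were prdm1+/+ with pbx2/4 morpholinos, and the double embryos were prdm1-/- with pbx2/4 morpholinos. A morpholino is an antisense oligonucleotide that blocks translation or splicing of its target RNA, here injected at the 1 cell stage, so every group carried a morpholino. RNA was taken from single embryos and pooled after genotyping, so each library averages over embryos and over all tissues. Eggs were collected and injected in 3 separate rounds, and the column names fall into 3 sets of 4 libraries, called A, B and C here, each holding 1 library of every group.

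Hox genes encode homeodomain transcription factors that give cells their position along the head-to-tail axis, and paralog groups 1 and 2 hold the members expressed farthest forward, in the hindbrain and the neural crest that leaves it. The hindbrain is divided into segments called rhombomeres, and Hox genes of these groups set the identity of the anterior ones. Their proteins bind DNA together with TALE homeodomain partners of the Pbx and Meis families, and several of the genes are themselves targets of such complexes. In zebrafish, pbx4 and pbx2 supply most of the Pbx activity of the early hindbrain. Prdm1a is a zinc finger repressor and activator needed for neural crest and slow muscle development.

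Libraries held 9059663 to 17236848 counts, so 1 count was worth 0.0572 to 0.115 CPM (counts scaled to the library's total, with the TMM factor of edgeR). Of the targeted genes, pbx2 was at 57.0 ± 12.7 CPM in controls and 260.1 ± 35.5 in pbx2/4 morphants (SD, n = 3), and pbx4 was at 330 ± 39.7 and 438 ± 43.2. The transcript level does not show whether a translation-blocking morpholino worked. The mRNA of prdm1a was at 105 ± 9.40 CPM in controls, 139 ± 6.09 in prdm1 mutants and 227 ± 10.6 in double embryos, which likewise does not check the genotype labels. Markers of neural tissue, hindbrain, forebrain, neural crest, muscle, notochord, blood, endoderm and epidermis were counted, and none of the 18 markers was at 0 in any library. The lowest values, of sox17 (endoderm) and egr2b (hindbrain), were 0.0961 CPM each, which is a single count, and in controls egr2b was at 52.0 to 56.5 CPM and sox17 at 0.230 to 0.504. In whole embryos, fewer cells of a type and less RNA per cell cannot be told apart.

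Over both prdm1 genotypes, all of the genes but hoxb1b were called lower in embryos with pbx2/4 morpholinos. The level of hoxb1b was slightly lower and was not called. The loss of prdm1 moved none of the 6 past the threshold, but few of all genes were called there. The share was 0.193% in prdm1 mutants against controls and 0.149% in double embryos against pbx2/4 morphants. Averaged over both prdm1 genotypes, 6 libraries against 6, hoxa1a was lowered to 29.6%, hoxb2a to 41.2%, hoxa2b to 46.1%, hoxc1a to 52.6% and hoxb1a to 55.1% of the level without pbx2/4 morpholinos. The level of hoxb1b was 93.1% of it and did not pass the test. Of all genes tested, 4.23% were called lower in this comparison (edgeR quasi-likelihood test, Benjamini-Hochberg adjusted p under 0.05), against 5 of these 6. The members and gene lists were chosen with earlier results of these data known. Such counts beside the share of all genes, here and below, are therefore descriptions and not tests of a set. For the same 5 genes, the highest of the 6 libraries with pbx2/4 morpholinos lay below the lowest of the 6 without, as did 3.71% of all genes tested.

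**Figure D1:**
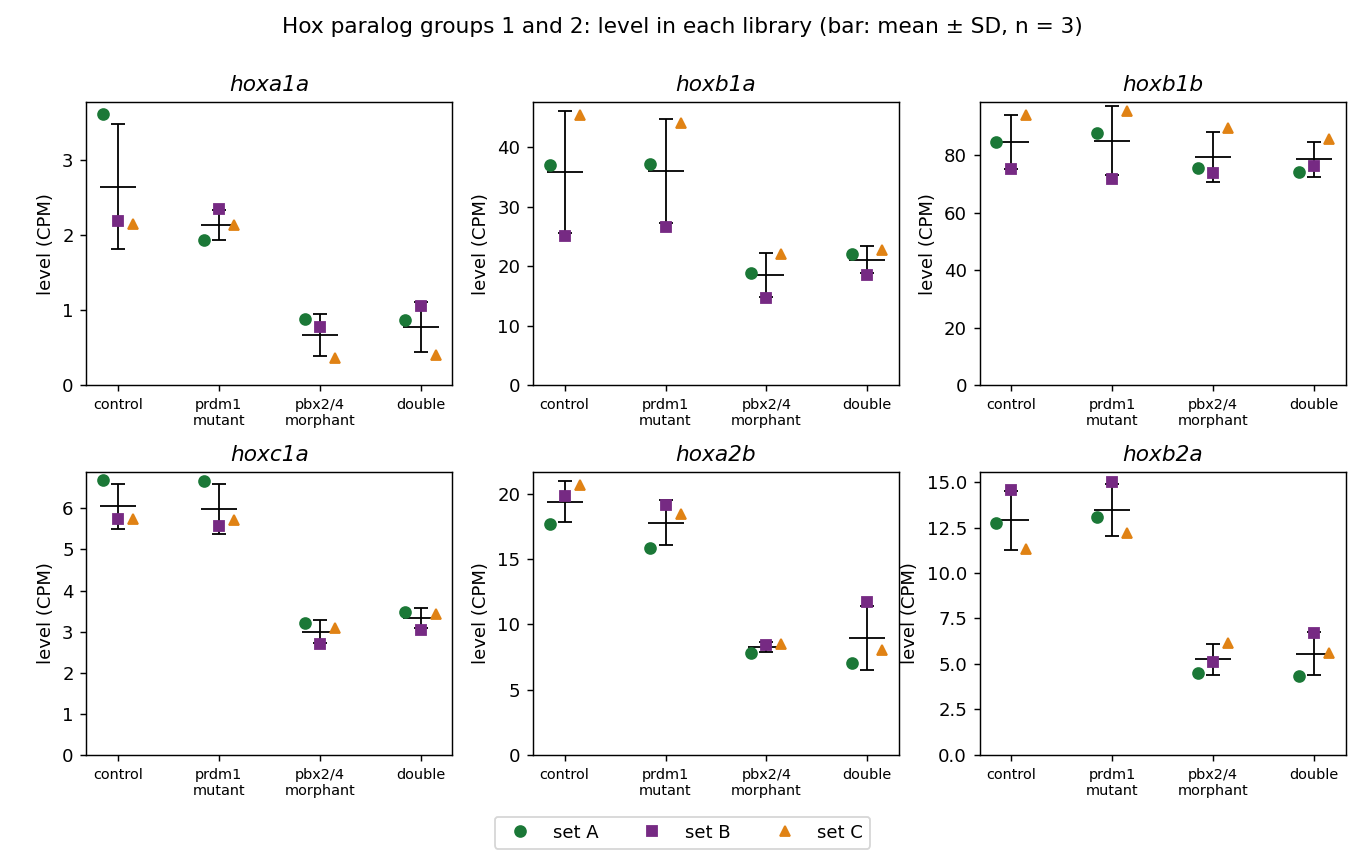
Level of each gene in CPM (vertical axis, from 0) in the 12 libraries by group, with the mean and SD of 3 libraries as bars and the replicate set as the point's marker. The 6 libraries with pbx2/4 morpholinos lie below the 6 others for every gene but hoxb1b, whose ranges of 73.6 to 89.5 and 71.8 to 95.5 CPM overlap.

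In paralog group 1, hoxb1b is the gene that in zebrafish starts earliest, in the gastrula, and acts in forming the anterior rhombomeres. In sets A, B and C it was at 84.7, 75.3 and 93.9 CPM in controls and at 87.8, 71.8 and 95.5 in prdm1 mutants. In pbx2/4 morphants it was at 75.4, 73.6 and 89.5 CPM, and in double embryos at 74.1, 76.1 and 85.5. The 4 groups overlapped, and the set with the highest value was C in each of them. The log2 fold change with pbx2/4 morpholinos over both genotypes was -0.10 (SE 0.10, adjusted p = 0.624, edgeR quasi-likelihood test). Its 95% interval ran from -0.33 to 0.12, so that a decrease as large as that of any of the other 5 genes lies outside it. With the replicate set as a block the value was the same, -0.10, with an interval of -0.22 to 0.01 (adjusted p = 0.114). The unadjusted p of that edgeR quasi-likelihood test was 0.0471, although the interval reached past 0. The interval used only the 6 residual degrees of freedom of that fit, while the test also drew on the spread of other genes. It is therefore wider than the test. Within sets, hoxb1b was lower in pbx2/4 morphants than in controls in 3 of 3 (log2 ratios of -0.17 to -0.03). It was lower in double embryos than in prdm1 mutants in 2 of 3 (-0.24 to 0.08).

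The gene hoxb1a marks rhombomere 4, where it gives the segment and its facial motor neurons their identity. In sets A, B and C it was at 36.9, 25.1 and 45.4 CPM in controls and at 37.2, 26.6 and 44.0 in prdm1 mutants. It was at 18.9, 14.7 and 22.0 CPM in pbx2/4 morphants and at 22.1, 18.6 and 22.7 in double embryos. The order of the sets, C above A above B, was the same in all 4 groups, and the spread over sets in controls (SD 10.2 CPM around a mean of 35.8) was the largest of the 6 genes in CPM. As a share of the mean it was 28.4%, next to 31.5% for hoxa1a. Within sets, pbx2/4 morphants were at 51.1%, 58.5% and 48.4% of their own control. The log2 fold change of pbx2/4 morphants against controls was -0.95 (SE 0.24), with an adjusted p of 0.0764 in the edgeR fit, 0.00883 in DESeq2 and 2.7e-05 in edgeR with the replicate set as a block. Averaged over both genotypes it was -0.86 (SE 0.17, edgeR adjusted p = 0.00861).

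The gene hoxa1a had the lowest counts, 6 to 35 in a library, and is expressed in zebrafish mainly in ventral neurons of the midbrain and anterior hindbrain rather than in whole rhombomeres. In sets A, B and C it was at 3.60, 2.18 and 2.14 CPM in controls and at 1.93, 2.34 and 2.12 in prdm1 mutants. It was at 0.884, 0.769 and 0.356 CPM in pbx2/4 morphants and at 0.871, 1.05 and 0.401 in double embryos. The libraries with pbx2/4 morpholinos were all below those without, and set C was the lowest in both of those groups. In pbx2/4 morphants against controls it fell to 25.0% (SE 0.41 on the log2 scale, edgeR adjusted p = 0.0337), and the 95% interval of its log2 fold change, -2.95 to -1.05, was the widest of the 6. Over both genotypes its log2 fold change was -1.76 (SE 0.29, edgeR adjusted p = 0.00363).

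The gene hoxc1a, of the hoxca cluster, was at 6.69, 5.74 and 5.73 CPM in the controls of sets A, B and C. It was at 6.67, 5.57 and 5.71 CPM in prdm1 mutants, at 3.22, 2.69 and 3.09 in pbx2/4 morphants and at 3.48, 3.04 and 3.43 in double embryos. The libraries with and without pbx2/4 morpholinos formed ranges that did not meet, 2.69 to 3.48 and 5.57 to 6.69 CPM. The log2 fold change was -1.01 (SE 0.19) in pbx2/4 morphants against controls, with an edgeR adjusted p of 0.0185, and -0.93 (SE 0.13) over both genotypes, with one of 0.00117.

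In paralog group 2, hoxa2b specifies the identity of the second pharyngeal arch in neural crest and is expressed in the hindbrain up to rhombomere 2. In sets A, B and C it was at 17.7, 19.9 and 20.7 CPM in controls and at 15.8, 19.1 and 18.5 in prdm1 mutants. It was at 7.80, 8.46 and 8.49 CPM in pbx2/4 morphants and at 7.06, 11.7 and 8.07 in double embryos. The double library of set B was the highest of the 6 with pbx2/4 morpholinos and still below the lowest without, 15.8. The log2 fold change was -1.24 (SE 0.18, edgeR adjusted p = 0.00639) in pbx2/4 morphants against controls, and within sets it ran only from -1.29 to -1.18. Over both genotypes it was -1.12 (SE 0.13, edgeR adjusted p = 0.000313).

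The gene hoxb2a acts with hoxa2b in second arch patterning and neighbours hoxb1a in the hoxba cluster. It was at 12.8, 14.6 and 11.3 CPM in the controls of sets A, B and C and at 13.1, 15.03 and 12.2 in prdm1 mutants. It was at 4.50, 5.09 and 6.18 CPM in pbx2/4 morphants and at 4.36, 6.71 and 5.61 in double embryos. Set C had the lowest control and the highest pbx2/4 morphant, so its decrease was the smallest of the 3 sets, to 54.5% against 35.3% and 34.9%. The log2 fold change was -1.28 (SE 0.20, edgeR adjusted p = 0.00750) in pbx2/4 morphants against controls and -1.28 (SE 0.14, edgeR adjusted p = 0.000236) over both genotypes.

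Taken by prdm1 genotype, hoxa1a, hoxc1a, hoxa2b and hoxb2a fell in pbx2/4 morphants against controls, which is 4 of 6 where 0.883% of all genes tested were called lower. In double embryos against prdm1 mutants, hoxc1a (-0.85, adjusted p = 0.0451), hoxa2b (-0.999, 0.0177) and hoxb2a (-1.27, 0.00739) fell, which is 3 of 6 against 0.811% of all genes. There, hoxa1a had a log2 fold change of -1.52 (adjusted p = 0.109), hoxb1a one of -0.77 (adjusted p = 0.168) and hoxb1b one of -0.11 (adjusted p = 0.878), all by edgeR. With the replicate set as a block, 5 of 6 were called lower in each of the 2 comparisons, all but hoxb1b, where 9.95% and 8.98% of all genes were. Under the block the adjusted p in double embryos against prdm1 mutants was 0.00657 for hoxa1a and 0.000142 for hoxb1a. In the fit without the block, leaving out any library of the compared groups ended the call of hoxa1a in pbx2/4 morphants against controls (edgeR adjusted p from 0.0536 to 0.141), and for hoxc1a all but the control of set B did so (up to 0.0899). In double embryos against prdm1 mutants the call of hoxc1a ended without any 1 library (adjusted p from 0.0780 to 0.176), and with no filter on low counts (0.0825), while that of hoxa2b held in 2 of 6 such fits (up to 0.0924). The calls of hoxa2b and hoxb2a in pbx2/4 morphants against controls held in all 6, and the 5 calls over both genotypes held whichever of the 12 libraries was left out.

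**Figure D2:**
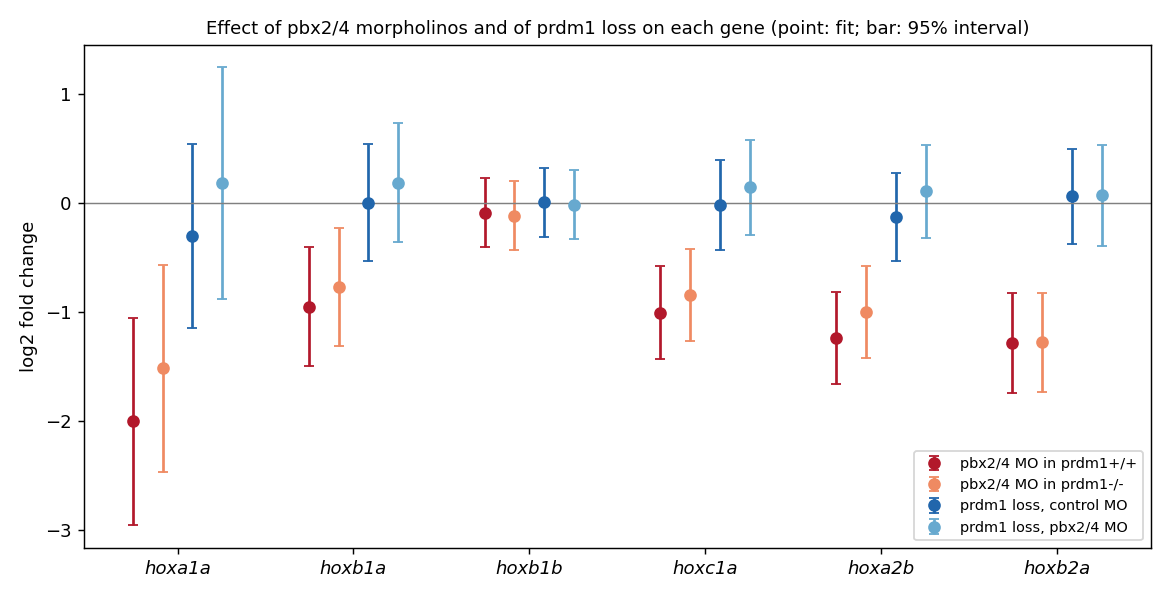
Log2 fold change (vertical axis) of each gene for pbx2/4 morpholinos in each prdm1 genotype and for prdm1 loss with each kind of morpholino. Bars are 95% intervals from the fit without the block, not adjusted for the number of genes tested. The intervals of the effects of pbx2/4 morpholinos lie below 0 for all genes but hoxb1b, whose intervals run from -0.41 to 0.23 in prdm1+/+ and from -0.43 to 0.20 in prdm1-/- embryos. Of those below 0, hoxb1a in both genotypes and hoxa1a in prdm1-/- embryos were not called after adjustment. The effects of prdm1 loss lie on both sides of 0.

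The loss of prdm1 moved none of the 6 genes past the threshold. In prdm1 mutants against controls, 0 of 6 were called where 0.193% of all genes tested were (edgeR without the block). There, 0 had an unadjusted p under 0.05, where 2.65% of all genes, or 480, did. With the replicate block and with DESeq2 both counts of members were again 0. Of all genes, 199 were called with the block and 60 by DESeq2, and 1531 and 483 had an unadjusted p under 0.05. The log2 fold changes were -0.30 for hoxa1a, 0.00 for hoxb1a, 0.01 for hoxb1b, -0.01 for hoxc1a, -0.13 for hoxa2b and 0.06 for hoxb2a. The 95% interval was -0.31 to 0.32 for hoxb1b and -1.15 to 0.54 for hoxa1a, the narrowest and the widest, so these libraries bound a change of hoxb1b closely and one of hoxa1a only loosely. In double embryos against pbx2/4 morphants, 0 of 6 were called by edgeR without the block, with it and by DESeq2 alike. Of all genes, 0.149%, or 27, were called without the block, 218 with it and 59 by DESeq2. In each of these fits 0 of 6 had an unadjusted p under 0.05. Of all genes, 2.71%, or 491, did so without the block, 1487 with it and 499 in DESeq2. The log2 fold changes without the block ran from -0.02 (hoxb1b) to 0.19 (hoxb1a). Double embryos against controls gave the pattern of the morphants alone, with hoxa1a (-1.82), hoxc1a (-0.86), hoxa2b (-1.13) and hoxb2a (-1.21) called lower, 4 of 6 against 1.41% of all genes, and hoxb1a at -0.77 (edgeR adjusted p = 0.139; with the block 5 of 6 were called against 10.8%). In the fit without the block, the calls of hoxa1a (edgeR adjusted p from 0.0571 to 0.154) and hoxc1a (0.0635 to 0.128) ended whichever library of the 2 groups was left out, and that of hoxc1a also with no filter on low counts (0.0592), while those of hoxa2b and hoxb2a held in all 6 such fits. These comparisons share groups of libraries and are not independent of each other.

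Whether the pbx2/4 effect differed between prdm1 genotypes was tested as an interaction. None of the 6 genes and 0 of the 18117 tested passed in edgeR, which is 0% of all genes. At an unadjusted p under 0.05 there were 103 genes, or 0.569%, with 523 under the replicate block and 96 in DESeq2, and none of the 6 was among them. That share is below what a threshold of 0.05 gives where no gene differs, as are the 2.65% and 2.71% for prdm1 loss. The fit without the block keeps the spread between sets in its residual (biological coefficient of variation 0.212, and 0.0754 with the block). It is thus a cautious fit, and its 0 calls do not show that an interaction is absent. The interaction, the log2 effect in prdm1-/- minus that in prdm1+/+, was 0.48 for hoxa1a, 0.18 for hoxb1a, -0.02 for hoxb1b, 0.16 for hoxc1a, 0.24 for hoxa2b and 0.01 for hoxb2a. Its 95% interval was narrowest for hoxb1b, -0.47 to 0.42, and reached from -0.88 to 1.84 for hoxa1a. With the replicate set as a block it was -0.25 to 0.21 for hoxb1b, -0.15 to 0.52 for hoxb1a and -0.76 to 1.69 for hoxa1a, and differences within these intervals are not excluded. Taken within sets, the difference was above 0 in all 3 for hoxa1a (0.18 to 0.88), hoxb1a (0.09 to 0.25), hoxc1a (0.12 to 0.22) and hoxa2b (0.02 to 0.53), and on both sides of 0 for hoxb1b and hoxb2a. The share of all genes with the same sign in all 3 sets was not computed. These genes were read in the same libraries and are not separate observations, so no difference between genotypes is drawn from the signs.

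Because the 6 genes were read in the same libraries, their ratios within a library show whether they moved by different amounts. The ratio of each of the other 5 genes to hoxb1b was lower in all 6 libraries with pbx2/4 morpholinos than in all 6 without. The levels of these 5 genes were already separated in this way while those of hoxb1b overlapped, so this largely follows from the levels. The share of all genes whose ratio to hoxb1b separates so was not computed. The log2 ratio of hoxb1a to hoxb1b was -1.27 ± 0.20 without and -2.005 ± 0.19 with pbx2/4 morpholinos (SD, n = 6 each), a difference of -0.74. It had a two-sided exact permutation p of 0.00216, the smallest that 924 splits can give, or 0.00649 adjusted over the 15 ratios of 2 members. Any ratio that separates the 6 libraries from the 6 others has this p, so it adds nothing to the separation. The corresponding differences were -1.65 for hoxa1a to hoxb1b, and, with hoxb1b over the other gene, 0.82 for hoxc1a, 1.03 for hoxa2b and 1.19 for hoxb2a, each with the same exact permutation p. Among the other 10 ratios, that of hoxa1a to hoxc1a was lower by a log2 difference of -0.82, although its ranges overlapped. Its exact permutation p was 0.00649 and its adjusted p 0.0162. The adjustment over 15 ratios includes the 5 to hoxb1b, whose p follows from the levels, and this can lower the adjusted p of the others. An adjustment over the other 10 alone was not run, so no difference is drawn from the adjusted p of hoxa1a to hoxc1a. The remaining 9 ratios had adjusted exact permutation p-values of 0.083 to 0.58. The permutations did not keep the replicate sets together, and 4 of these 9 ratios moved one way in all 3 sets. Their log2 differences by set ran from -1.41 to -0.64 for hoxa1a to hoxb1a, from -1.17 to -0.32 for hoxa1a to hoxa2b, from 0.24 to 0.32 for hoxb1a to hoxa2b and from 0.19 to 0.55 for hoxc1a to hoxb2a. The ratio of hoxa2b to hoxb2a, the 2 genes of paralog group 2, differed by 0.16 (exact permutation p = 0.141, adjusted p = 0.192). The ratios of genes to hoxb1b share hoxb1b and are not independent tests.

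**Figure D3:**
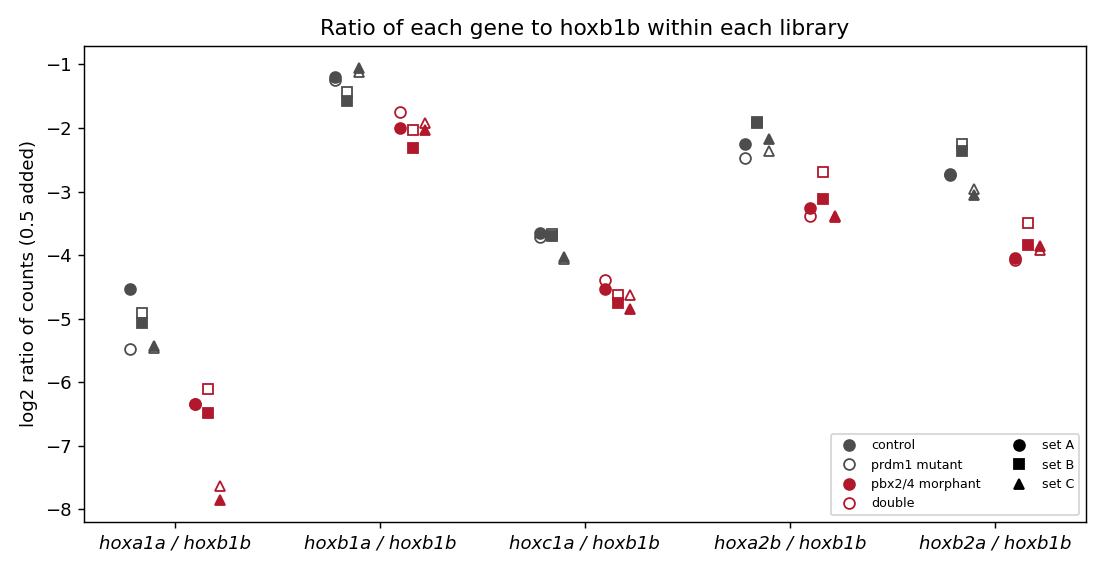
Log2 ratio of the counts of each gene to those of hoxb1b in each library, with 0.5 added to both counts, for libraries without (black) and with (red) pbx2/4 morpholinos, filled points for prdm1+/+ and open points for prdm1-/-. For all 5 genes the 6 red points lie below the 6 black ones, and for hoxb1a the means are -1.27 and -2.005.

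As a share of the summed CPM of the 4 genes of paralog group 1, hoxb1b made up 65.8% ± 3.17 in controls and 66.0% ± 1.39 in prdm1 mutants, and 78.2% ± 1.81 in pbx2/4 morphants and 75.7% ± 1.78 in double embryos (SD, n = 3). The share of hoxb1a was 27.3% ± 3.86 and 27.6% ± 2.43 without, and 18.1% ± 1.81 and 20.3% ± 1.60 with pbx2/4 morpholinos. The sum itself was 129 ± 19.6 CPM in controls and 102 ± 11.9 in pbx2/4 morphants, while that of paralog group 2 was 32.3 ± 2.003 and 13.5 ± 1.19. Gene lengths were not used, so a share tells how a gene's part of the sum differed between groups and not which gene has more transcripts.

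Set out by paralog group, the calls in pbx2/4 morphants against controls lay in groups 1 to 3 in the edgeR fit. Averaged over both genotypes, 3 of 8 genes of groups 3 and 4 were lower, and of 30 of groups 5 to 13, 1 was lower and 1 higher. Of all 18117 genes tested there, 1301 were called in either direction, and 766, or 4.23%, were lower. Taken in either direction, calls in groups 5 to 13 were thus no more frequent than over all genes tested. In pbx2/4 morphants against controls, 4 of 6 genes of paralog groups 1 and 2 fell, with a median log2 fold change of -1.12. Of paralog groups 3 and 4, 1 of 8 fell, hoxa3a (-1.12, SE 0.13, adjusted p = 0.00209), with a median of -0.24. Of the 30 genes tested of paralog groups 5 to 13, which pattern the trunk and tail, none was called by edgeR (4 had an unadjusted p under 0.05, and DESeq2 called 1 higher), and the median was 0.01, the same as that of all genes tested. With the replicate set as a block, 2 of these 30 were lower and 3 higher, 4 of the 8 genes of paralog groups 3 and 4 were called lower (2 in DESeq2), and hoxa4a was next to hoxa3a in size with a log2 fold change of -0.75. Of all genes tested in this comparison, 0.883% were called lower by edgeR and 9.95% with the block. In either direction, 260 genes were called by edgeR, 546 by DESeq2 and 3203 with the block.

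**Figure D4:**
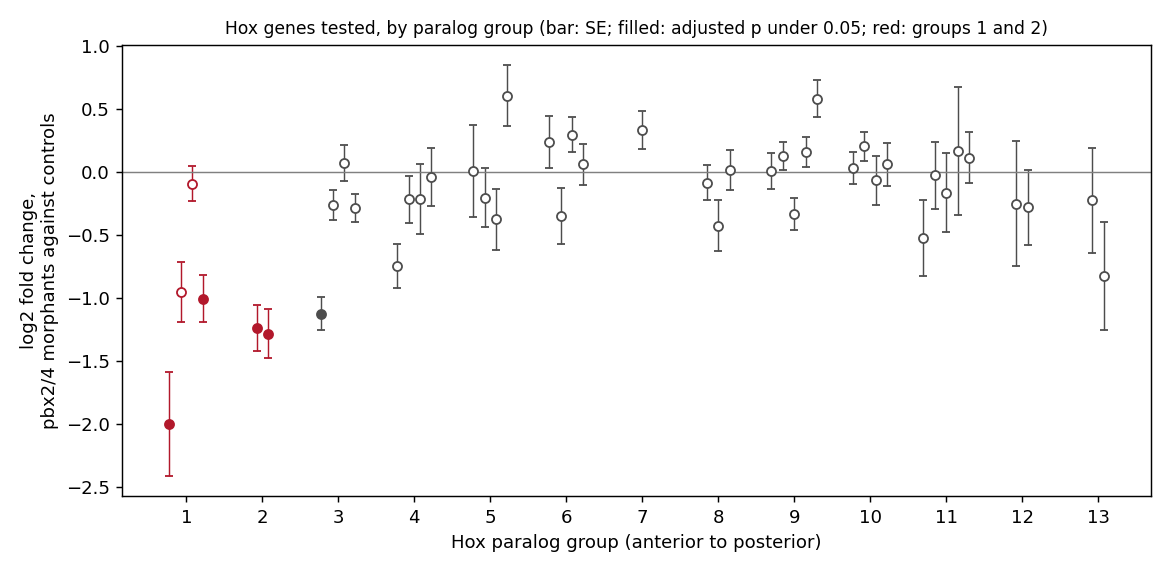
Log2 fold change of pbx2/4 morphants against controls (vertical axis) of every Hox gene tested, by paralog group from anterior to posterior (horizontal axis), with the SE as the bar, filled points for genes called at an adjusted p under 0.05 and red for groups 1 and 2. The 4 called genes of groups 1 and 2 and hoxa3a lie at -1.01 or lower, and none of the 30 genes of groups 5 to 13 is filled.

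Among the TALE partners, 2 of 10 gene identifiers tested were called in pbx2/4 morphants against controls. A gene name can have more than 1 identifier, and each is counted. Of the 2, pbx2 itself rose (log2 fold change 2.19, edgeR adjusted p = 0.00105) and meis3, a hindbrain Meis gene, fell (-0.76, SE 0.11, edgeR adjusted p = 0.0043). With the replicate block, 1 of the 10 identifiers was lower and 6 were higher. Over all genes tested, 0.883% were called lower by edgeR and 9.95% with the block, and 260 and 3203 genes in either direction. Among 26 rhombomere genes, 4 fell, egr2b (-5.34, SE 0.59), which marks rhombomeres 3 and 5 and in the mouse activates Hoxa2 and Hoxb2 there, mafba (-2.46), egr2a (-2.24) and gbx1 (-1.37), with none higher. With the block, 12 were lower and 1 higher. Among 20 genes of the retinoic acid pathway, which sets anterior Hox expression, 2 fell, cyp26b1 (-3.30) and cyp26c1 (-1.34), both enzymes that degrade retinoic acid. With the block 5 were lower and 5 higher. In prdm1 mutants against controls, none of the TALE, rhombomere, retinoic acid or paralog group 3 and 4 genes was called by edgeR or DESeq2, 1 rhombomere gene had an unadjusted p under 0.05, and 1 was called higher with the block. There, edgeR called 0.193% of all genes tested, and 2.65% had an unadjusted p under 0.05. With the block 199 genes were called, and by DESeq2 60.

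Markers of other tissues are given here for the contrast of pbx2/4 morphants against controls as measured values. In that contrast 0.883% of all genes tested were called lower by edgeR and 9.95% with the block. Called in either direction were 260 genes by edgeR, 546 by DESeq2 and 3203 with the block. The 18 pan-neural genes summed to 2028 to 2138 CPM in controls and 1681 to 2013 in pbx2/4 morphants, with none at 0, a median log2 fold change of -0.25 and 1 called lower, neurog1 (-0.67; 5 lower in DESeq2 and 9 with the block). Scaled to that sum instead of the whole library, an alternative chosen after seeing the data, the log2 differences of pbx2/4 morphants from controls were -1.86 for hoxa1a, -0.75 for hoxb1a, 0.09 for hoxb1b, -0.83 for hoxc1a, -1.05 for hoxa2b and -1.12 for hoxb2a. The sign of hoxb1b thus turned, and 5 of the 6 remained below 0 in each set. Of the forebrain and midbrain genes, 5 of 18 fell, among them pax6a (-0.94) and wnt1 (-1.43), and with the block 8 were lower and 1 higher. None of the 11 arch neural crest genes was called by edgeR (3 had an unadjusted p under 0.05, DESeq2 called 1 higher, and with the block 2 were lower and 1 higher), 3 of 15 muscle genes were lower, such as myog (-1.42), and of 20 genes of other tissues 1 was, tp63 (-0.51). For muscle genes DESeq2 called 5 lower, and the block 5 lower and 1 higher. For other tissues DESeq2 called 1 lower and 1 higher, and the block 4 lower and 3 higher. Of 17 genes of the p53 response, 10 rose (12 in DESeq2, 15 with the block), among them mdm2 (1.60) and cdkn1a (1.68), and their summed level was 1305 to 2200 CPM in controls and 3909 to 5028 in pbx2/4 morphants. The part of this response in the levels of the Hox genes was not tested.

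Across the 12 libraries, with the mean of each set subtracted, the log2 levels of the 5 genes other than hoxb1b correlated with each other at r = 0.90 to 0.99, and hoxb1b with each of them at 0.66 to 0.73. Without the subtraction these were 0.69 to 0.97 and 0.10 to 0.73. The points share the libraries and the treatment, so these are descriptions. By the same measure, the 3 genes most like hoxa2b were meis3 (r = 0.997), setdb1b and racgap1, and those most like hoxb2a were chek1 (0.994), morc2 and mcmbp. Those most like hoxb1a were pax6a (0.992), EFCAB6 and pane1, and those most like hoxc1a were eef1g (0.994), mcmbp and CDCA7. For hoxa1a they were zgc:110216 (0.979), AMMECR1 and eif4a1b, and for hoxb1b CABZ01064799.1 (0.960), DDX11 and CU856207.1. All were taken from the 18116 other genes tested, over 12 libraries. Without the subtraction of set means, 1 of the 3 genes was shared for hoxb1a (EFCAB6), hoxa2b (racgap1) and hoxb2a (morc2) and 0 for hoxa1a, hoxb1b and hoxc1a. Most of these names therefore differ with the centring, and meis3 was then not among the 3 of hoxa2b.

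The authors' deposited table of pbx2/4 morphants against controls gives, with its sign turned so that lower in morphants is negative, log2 values of -2.02 for hoxa1a, -0.99 for hoxb1a, -0.10 for hoxb1b, -0.99 for hoxc1a, -1.25 for hoxa2b and -1.23 for hoxb2a. The unadjusted p-value in the authors' deposited table was 0.642 for hoxb1b and at most 0.000930 for the other 5.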

How the data were processed

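Per the submitters' processing notes, reads were handled with TopHat 1.4 and edgeR on the Zv9 genome build; neither the annotation nor the read assignment is stated there. The authors deposited estimated counts per gene, not normalized: 13.7% of values were not whole (tolerance 1e-06), but all 72 values of the 6 genes were. Values were rounded. The authors also deposited tables of their comparisons with p-values and log2 fold changes, whose log2 base was read from a slope of 1.00 on the values computed here. The slope is positive only with the deposited sign turned. The direction of those values is therefore no separate check of the ones computed here.

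edgeR 4.0.16 (R 4.3.3; TMM, filterByExpr, quasi-likelihood test, 12 libraries in 1 model of 4 groups, 8 residual degrees of freedom, Benjamini-Hochberg adjustment, adjusted p under 0.05) gave each comparison over 18117 genes, with SEs from the F statistic and 95% intervals from the t distribution on those degrees of freedom. The tests also drew on the spread of other genes, so these intervals are wider than the tests beside them. DESeq2 1.42.0, other scalings and filters, the replicate block and leaving out libraries were alternatives. The script was tested on simulated data. The design assumed whole counts. The members and gene lists were chosen with earlier results of these data known. The 6 genes, prdm1a, pbx2, pbx4 and at most 4 called genes per list were named by rule, with the 3 genes most like each.

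Column names pair libraries in sets. Deviations from group means of same-set libraries correlated at 0.448 to 0.669 in all 18 pairs, and those of libraries of different set and group at -0.483 to -0.0299. Deviations from a group mean cancel within the group, so the second range follows from the first and adds no separate evidence of pairing. The series description gives 3 rounds of egg collection and injection. p-values measure the spread between these pooled libraries, and intervals cover no more than that.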

Additional observations from a re-analysis of the deposited data

How the results depend on the processing

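The count of members called lower changed with several alternatives, and the cause was not tested. In pbx2/4 morphants against controls it was 4, 2 with only the 2 groups compared, and 2 to 4 with 1 library left out. In double embryos against prdm1 mutants it was 3, 1 with only the 2 groups compared, 5 with the replicate block, and 1 to 2 with 1 library left out. In double embryos against controls it was 4, 2 with only the 2 groups compared, and 2 whichever library was left out. With the block and a library left out, an alternative added after seeing the data, it was 5 in every fit of these 3 comparisons, and hoxb1b was the member not called. Over both genotypes the other 5 members were called in every alternative run, and hoxb1b was called in 1 of 12 fits with the block and a library left out (adjusted p = 0.0479, edgeR). Of all genes, 1301 were called there in either direction by edgeR, 719 to 1121 with 1 library left out and 5823 with the block. The biological coefficient of variation was 0.212, and 0.0754 with the block, and the genes called in pbx2/4 morphants against controls were 260 and 3203. In that comparison 120 genes were called with only the 2 groups compared, and 78 to 168 with 1 library left out, without the block. In double embryos against prdm1 mutants 247 genes were called, 95 with only the 2 groups compared, 72 to 196 with 1 library left out and 2935 with the block. In double embryos against controls these counts were 407, 205, 163 to 311 and 3655. The count of all genes called with the block and a library left out is not given here. Beyond the calls of hoxa1a and hoxb1a given with the results, the block changed no call of a member.

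Beside hoxb1b scaled to the pan-neural sum, sign changes were seen in effects that no fit called. The interaction of hoxb2a was 0.01, and -0.00801 in DESeq2, -0.0011 with its size factors in edgeR, -0.000858 with upper quartile scaling and -0.019 with the block. With 1 library left out, interactions ran from -0.029 to 0.38 (hoxb1a), -0.13 to 0.070 (hoxb1b) and -0.14 to 0.20 (hoxb2a). Log2 fold changes in prdm1 mutants against controls ran from -0.58 to 0.0047 (hoxa1a), -0.19 to 0.22 (hoxb1a), -0.085 to 0.11 (hoxb1b), -0.10 to 0.062 (hoxc1a) and -0.039 to 0.16 (hoxb2a), and in double embryos against pbx2/4 morphants from -0.17 to 0.54 (hoxa1a), -0.090 to 0.077 (hoxb1b), -0.12 to 0.25 (hoxa2b) and -0.075 to 0.27 (hoxb2a). The cause was not tested. Counts of hoxa1a, the lowest of the 6, were 6 to 11 in a library with pbx2/4 morpholinos and 19 to 35 in one without.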
